A study of Oryza sativa Japonica Group and Oryza sativa Indica Group with 24 samples.

Results

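The genes described here are the rice cyclins of types A, B and D, the cyclin-dependent kinases CDKA and CDKB, their KRP inhibitors and the kinesins. A gene was taken when its symbol or a synonym in the RefSeq gene table, with a leading Os dropped, started with CYCA, CYCB, CYCD, CDKA, CDKB or KRP, or was KIN followed by a number and a letter. The rule found 64 genes. A probe set is the group of short oligos on the array that reports 1 transcript. Of the 64 genes, 55 had at least 1 probe set, out of 17905 genes in the series that had one, and 9 had none (CDKB1-1, CYCA3-1, CYCB1-5, CYCD2-1, KRP2, KRP3, KIN12F, KIN14D and KIN14P). The 55 genes were 3 cyclins A, 4 cyclins B, 9 cyclins D, 2 CDKA, 1 CDKB, 4 KRP and 32 kinesins, and together they held 66 probe sets.

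Total RNA of the crown and growing point of rice at panicle initiation, an early reproductive stage, was measured on 24 Affymetrix rice arrays. The arrays fall into 4 sets, each with 3 salt-stressed and 3 unstressed (control) arrays: the salt-sensitive japonica m103, the salt-tolerant japonica agami (both classes from the series text), and a pair of sets whose titles both say ir29. Per the series text the indica lines were ir29, classed as sensitive, and ir63731, classed as tolerant. No title carries ir63731, so the ir29-labelled sets are called the first (title numbers 7 to 12) and the second (title numbers 19 to 24), with no tolerance class. The titles call the replicates biological, but the sources used here do not give the plants per sample, the salt level or its duration, so p-values measure the spread between these samples.

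Cyclins switch on cyclin-dependent kinases and so time the steps of the cell cycle. D-type cyclins with CDKA open the way into DNA synthesis, A-type and B-type cyclins act from DNA synthesis to mitosis, CDKB is a plant kinase of the entry into mitosis, and KRP proteins bind and inhibit the kinases. Kinesins are motors that move along microtubules. Plants have many of them, for the spindle and the phragmoplast (the microtubule array that builds the new cell wall) and also, outside division, for organelle movement and for the microtubules that guide cell wall deposition. In the crown and growing point the dividing cells are those of the shoot meristem and the young leaves and stem around it.

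All arrays were brought to a trimmed mean signal of 500, called the scaled signal below. A change is the difference of mean log2(scaled signal + 16) between groups, with its standard error (SE) from a limma model over all 24 arrays, and genes with a p under 0.05 after Benjamini-Hochberg adjustment across the 34355 tested probe sets were called. Each gene counts through its probe set with the highest mean. All 55 genes passed the filter on dim probe sets, as did 65 of the 66 probe sets. Replicate arrays correlated at 0.963 to 0.974 (Pearson's r). Of the arrays, 9 had been deposited unscaled, 4 of them from the first set labelled ir29 and 5 from m103. The ratio of actin 3′ to 5′ signal, which rises as RNA breaks down, was 4.11 to 10.1, and it was highest on salt arrays 2 (10.1) and 3 (9.34) of the second ir29-labelled set. Its part in the results of that set was not tested, but the counts without both arrays are given. OSH1, a defining gene of the shoot meristem, had a median scaled signal of 4080 over the 24 arrays. The leaf gene CAB2R had 29120, so the samples also held green tissue. CASP1, a gene of the root endodermis, was near the filter of 27.9 at 37.3, while CASP-like genes ran from 42.3 (CASPL1D1) to 7938 (CASPL2A1). The share of root tissue was not tested.

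Most of the salt changes that passed the test among these genes were lower kinesin signals. Averaged over the 4 sets, 11 of the 55 genes fell and 4 rose, where 11.8% of the 16264 genes tested were called lower and 14.6% higher, so that the members' total was near the share of all genes. The kinesins were 10 of the 11 that fell: 10 of 32 kinesins (31.2%) fell and none rose, with 3 of 32 higher and 14 of 32 lower at an unadjusted p under 0.05. Shares of all genes, here and below, are of adjusted calls. No share was counted at the unadjusted threshold, so unadjusted counts have no background beside them. The median change was -0.10 over the kinesins and 0.01 over all genes. Among the other 23 genes, 4 rose and 1 fell. In whole tissue, fewer cells of a type and less RNA per cell cannot be told apart.

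**Figure D1:**
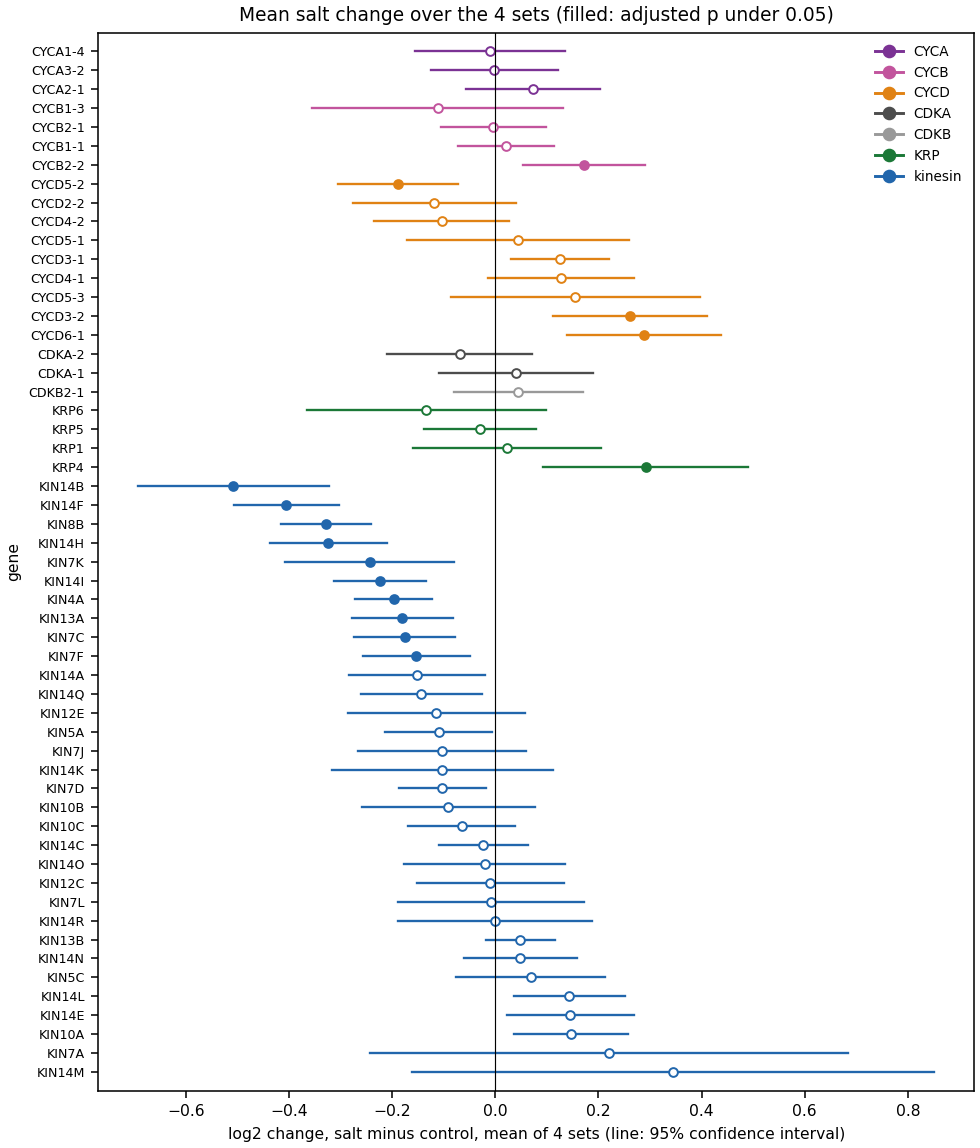
Change with salt averaged over the 4 sets for each of the 55 genes (x axis, log2, salt minus control; y axis, genes by class). Points are estimates, lines 95% confidence intervals and filled points genes called at an adjusted p under 0.05. All 11 filled points left of 0 but 1 (CYCD5-2) are kinesins, led by KIN14B at -0.51, and the 4 filled points on the right are CYCB2-2, CYCD3-2, CYCD6-1 and KRP4.

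The sets differed in how many of these genes passed the test. In m103, 7 genes fell and 1 rose, with 7.11% of all genes called lower and 6.46% higher. In agami limma called none of the 55 in either direction, with 0.486% of all genes lower and 0.836% higher, and 3 were lower and 5 higher at an unadjusted p under 0.05. In the first ir29-labelled set 3 fell and none rose (3.81% and 5.02% of all genes). At an unadjusted p under 0.05, 15 were lower and 2 higher, which cannot be set against those shares. In the second ir29-labelled set 6 fell and 2 rose (5.23% and 7.4% of all genes). A count that differs between sets does not show that the effects differ, and the tests of that difference are given further on. The calls of the second ir29-labelled set were fragile: without its salt arrays 2 and 3 only KIN14F was called, and 0 genes were called when the 6 arrays were fitted alone.

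**Figure D2:**
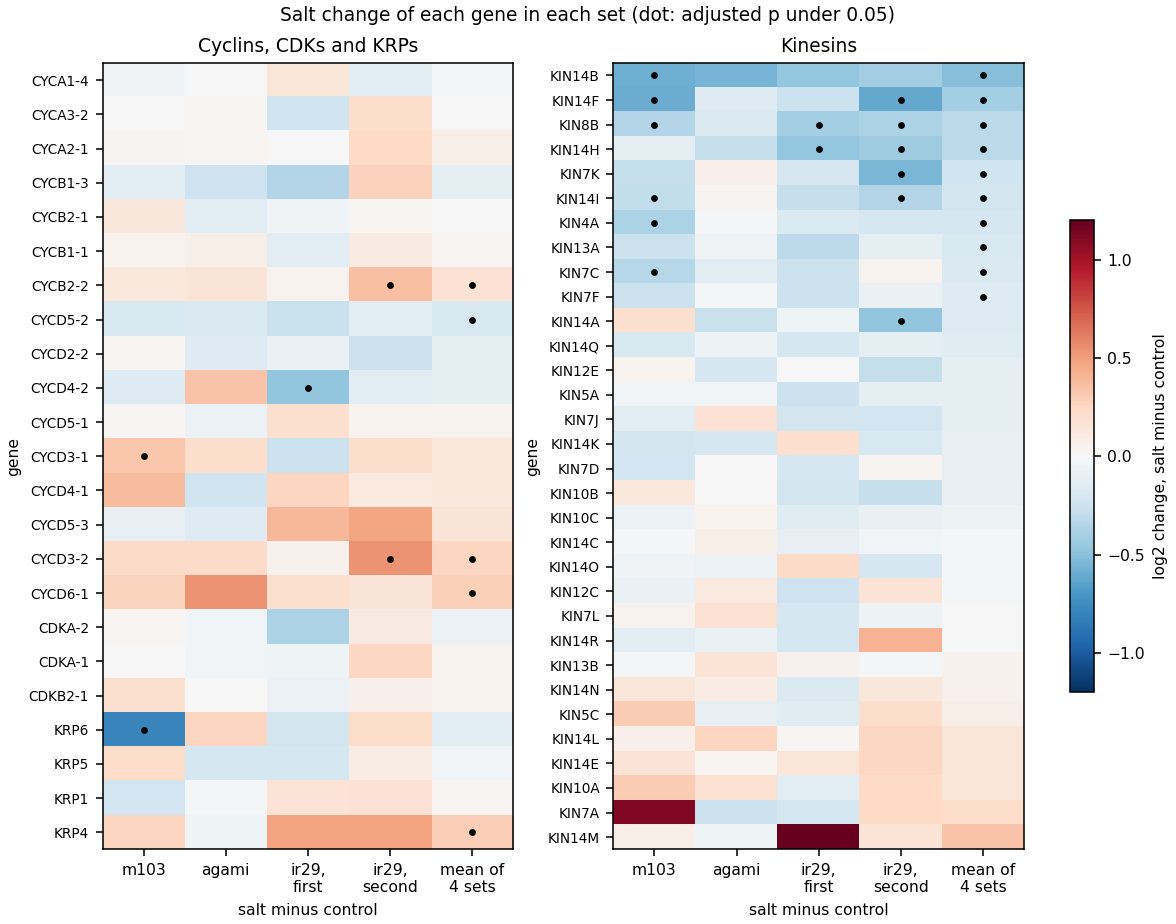
Change with salt in each set and in the mean of the 4 sets (columns), one row per gene, with cyclins, kinases and KRP genes on the left and kinesins on the right. Colour gives the log2 change, salt minus control (blue lower, red higher with salt), and a dot marks an adjusted p under 0.05. The dots gather in the upper rows of the kinesin panel, the agami column has none, and the darkest red cells, KIN7A in m103 and KIN14M in the first ir29-labelled set, carry no dot.

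The A-type and B-type cyclins and their kinases, the genes of DNA synthesis and mitosis, mostly showed no change that passed the test. None of the 3 cyclins A was called in any set or in the mean of sets, where CYCA2-1 had a change of 0.07 (95% confidence interval -0.06 to 0.20), CYCA1-4 of -0.01 (-0.16 to 0.14) and CYCA3-2 of -0.0023 (-0.13 to 0.12). Of the 4 cyclins B, CYCB1-1 (gene ID 4327547) had 4998 ± 350 scaled signal on salt and 4844 ± 316 on control arrays of m103, and 4956 ± 142 on salt and 4599 ± 269 on control arrays of the second ir29-labelled set (SD, n = 3 each). Its mean change over the sets was 0.02 (-0.07 to 0.11), so a change of more than 0.11 either way lies outside the interval. CYCB2-1 had -0.0036 (-0.11 to 0.10) and the dimmer CYCB1-3 -0.11 (-0.36 to 0.13).

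CYCB2-2, a B-type cyclin that pairs with CDKB2-1 in rice, was the exception among these classes. It averaged 4197 ± 489 on salt and 3264 ± 494 on control arrays of the second ir29-labelled set, a rise of 0.37 ± 0.11 (SE; limma adjusted p = 0.0472), and rose by 0.17 ± 0.06 in the mean of the sets (adjusted p = 0.0382). The groups overlapped in every set. Leaving out 1 array at a time ended the call in the second ir29-labelled set for 4 of 6 arrays (adjusted p up to 0.24) and the mean call for 14 of 24 (up to 0.0741), and the other probe set of the gene had a mean change of -4.1e-05 (adjusted p = 1). The kinase CDKB2-1 itself averaged 4550 ± 547 on salt and 3981 ± 348 on control arrays of m103 and was called in no set, with a mean change of 0.04 (-0.08 to 0.17).

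The CDKA genes, which encode the main kinase of the cycle, did not pass the test through their brightest probe sets: CDKA-1 had a mean change of 0.04 (-0.11 to 0.19) and CDKA-2 of -0.07 (-0.21 to 0.07). The 3 probe sets of CDKA-2 disagreed. One of the others was called higher in the second ir29-labelled set (0.52 ± 0.15, adjusted p = 0.0269), and another was called lower in the mean of the sets (-0.57 ± 0.18, adjusted p = 0.0282), so no direction is given for this gene. The brightest probe set of CDKA-1 is of a type that can report several transcripts, and that of CDKA-2 of a type that can cross-hybridize.

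The D-type cyclins, which act at the entry into the cycle, moved in both directions. Of 9 genes, CYCD3-2 and CYCD6-1 rose and CYCD5-2 fell in the mean of the sets, and the other 6 were not called there. CYCD6-1 had a mean change of 0.29 ± 0.07 (adjusted p = 0.00654) and was higher in each set: it averaged 712 ± 66.9 on salt and 488 ± 90.0 on control arrays of agami, the largest single-set change of the gene (0.54 ± 0.15, not called, adjusted p = 0.0733). CYCD3-2 rose by 0.26 ± 0.07 in the mean (adjusted p = 0.0132) and by 0.54 ± 0.15 in the second ir29-labelled set (adjusted p = 0.0215), where salt arrays averaged 1401 ± 72.2 and control arrays 978 ± 252. Both mean calls held when each array was left out in turn, while the call of CYCD3-2 in the second ir29-labelled set was lost for 3 of 6 arrays. CYCD5-2 fell by 0.19 ± 0.06 (adjusted p = 0.0207), while its other probe set had -0.01 ± 0.08.

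The estimated change of CYCD3-1 was negative in the first ir29-labelled set and positive in the others, and only that of m103 was called. Its scaled signals were 4044, 3851 and 4331 on salt arrays of m103, against 3039, 3451 and 3180 on control arrays. In agami they were 3420, 3406 and 3580 on salt arrays, against 3106, 2960 and 2914 on control arrays. All salt arrays of these cultivars therefore lay above the control arrays of their set, with a called rise in m103 (0.34 ± 0.09, adjusted p = 0.0213, lost for 3 of 6 arrays left out, up to 0.109) and an uncalled change in agami (0.21 ± 0.09, adjusted p = 0.325). In the first ir29-labelled set the order was turned, with 3839, 2984 and 3364 on salt arrays, against 4057, 3903 and 4192 on control arrays (change -0.26 ± 0.09, adjusted p = 0.105). In the second ir29-labelled set the groups overlapped, at 4818, 4219 and 4462 on salt arrays, against 4301, 3617 and 3754 on control arrays (0.21 ± 0.09, adjusted p = 0.169).

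CYCD4-2 was the other D-type cyclin called within a set. It had 1345, 1077 and 1209 on salt arrays of the first ir29-labelled set, against 1828, 1522 and 1705 on control arrays. The groups did not overlap there, and the gene fell by 0.47 ± 0.13 (adjusted p = 0.0248), a call that was lost on leaving out any of 4 of the 6 arrays (adjusted p up to 0.129). In the other 3 sets its salt and control arrays overlapped.

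KRP6, an inhibitor of the kinases, showed the largest called change of these genes in a single set. Salt arrays of m103 had 2201, 1413 and 1508, against 3092, 2524 and 3160 on control arrays. The groups did not overlap, and KRP6 fell by 0.79 ± 0.22 (adjusted p = 0.0269), although leaving out any of 4 of the 6 arrays ended the call (adjusted p up to 0.139). Its other, uncalled probe set had -1.15 ± 0.45 in m103. In agami the salt arrays of KRP6 (2674 ± 354) and the control arrays (2341 ± 917) overlapped, and the difference in effect between agami and m103 was 1.05 ± 0.32 (adjusted p = 0.126). KRP4 rose by 0.29 ± 0.10 in the mean of the sets (adjusted p = 0.0362), with its salt arrays above its control arrays in m103 and, by a margin of under 1 unit of signal, in the first ir29-labelled set. This call was lost for 14 of the 24 arrays left out (adjusted p up to 0.0714). KRP1 and KRP5 were called in no salt comparison.

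**Figure D3:**
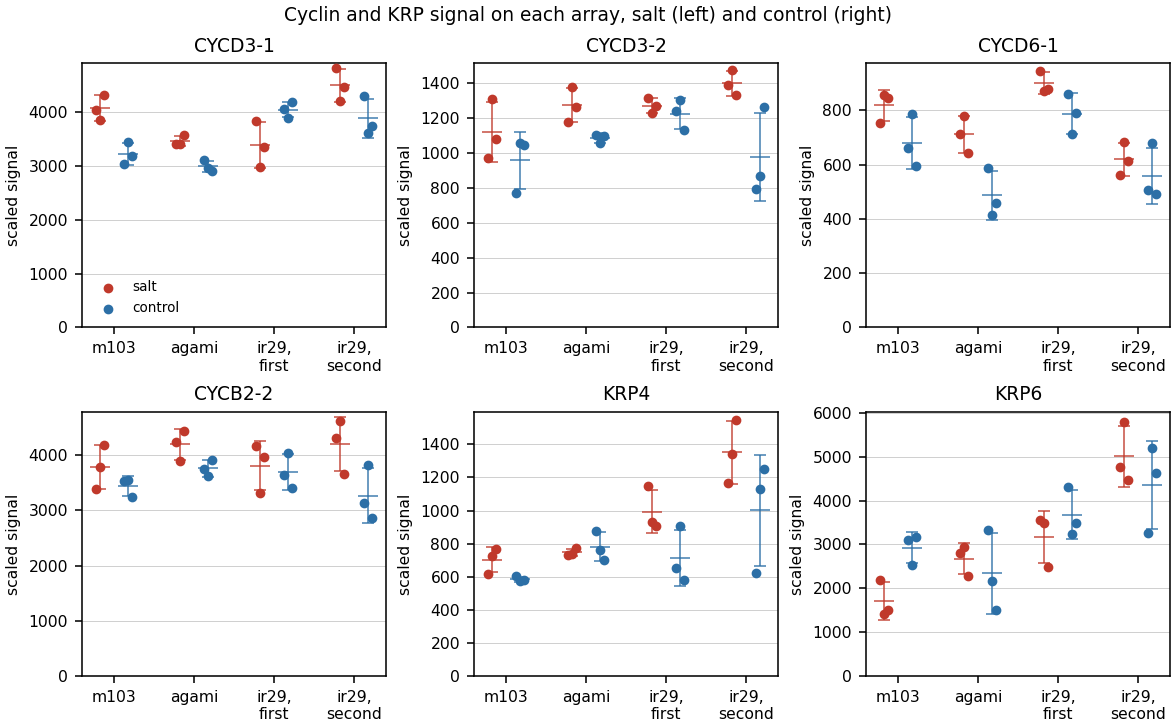
Scaled signal (y axis, linear, from 0) of 4 cyclins and a pair of KRP genes on each array, with salt arrays (red) left of control arrays (blue) in each set (x axis). Points are arrays, and bars the mean and SD of 3. CYCD3-1 lies higher with salt in m103 and agami and lower in the first ir29-labelled set, and KRP6 lies lower with salt in m103 (1707 ± 430 on salt and 2926 ± 349 on control arrays).

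Counted by separation rather than by the model, 7 of the 55 genes had all salt arrays above all control arrays in at least 2 sets (CYCD3-1, CYCD3-2, CYCD4-1, CYCD6-1, KRP4, KIN10A and KIN13B), with 15.8% of all genes doing so. The total of 7 among the 55 was no larger than that background gives. Of the 7, 4 were D-type cyclins, a class with 9 genes tested, and their share was not tested. CYCD4-1 averaged 2790 ± 310 on salt arrays of m103, against 2141 ± 188 on control arrays, and its change there of 0.38 ± 0.14 was not called (adjusted p = 0.0956).

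The kinesins that fell came from several families. In the mean of the sets 4 of 14 KIN14 genes, which are minus-end-directed motors, 3 of 7 KIN7 genes, 1 of 2 KIN13 genes and the single KIN4 and KIN8 genes fell. None of the 3 KIN10, 2 KIN12 or 2 KIN5 genes was called. With 11.8% of all genes called lower, families this small may hold no call in any case, so nothing is read from it. Motors of the phragmoplast and the spindle are known both from families with calls and from families without. At an unadjusted p under 0.05 the kinesins without a call included KIN10A (0.15, 0.04 to 0.26) and KIN5A (-0.11, -0.21 to -0.01).

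KIN14F (gene ID 4332578) had the smallest adjusted p of the 55 genes in the mean of the sets. In m103 its scaled signals were 994, 955 and 1042 on salt arrays, against 1600, 1482 and 1466 on control arrays. In agami they were 1517, 1471 and 1273, against 1530, 1539 and 1654 on control arrays. Every salt array lay below every control array of its set in both cultivars, by a wide margin in m103 and a narrow one in agami. In the first ir29-labelled set the salt arrays had 1272, 1348 and 1285, against 1736, 1385 and 1576 on control arrays. In the second they had 953, 935 and 1077, against 1578, 1413 and 1580 on control arrays. The change was -0.60 ± 0.10 in m103 (adjusted p = 0.000339), -0.62 ± 0.10 in the second ir29-labelled set (adjusted p = 0.000767), -0.26 ± 0.10 in the first (adjusted p = 0.14) and -0.15 ± 0.10 in agami (adjusted p = 0.579). Averaged, it fell by 0.41 ± 0.05 (adjusted p = 3.85e-06), to 0.755 of the control level, and its calls held without any single array.

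KIN8B (gene ID 4334272), the only measured member of a family whose yeast and animal relatives shorten microtubules at their plus ends, fell in 3 sets. In m103 salt arrays had 1673, 1846 and 1956, against 2348, 2457 and 2188 on control arrays. In the first ir29-labelled set they had 1804, 1820 and 1895, against 2607, 2440 and 2302 on control arrays, and in the second 1711, 1842 and 1658, against 2257, 2240 and 2297. The groups were apart in each, with falls of 0.35 ± 0.08 (adjusted p = 0.00931), 0.41 ± 0.08 (adjusted p = 0.00405) and 0.38 ± 0.08 (adjusted p = 0.00697). In agami the salt arrays, at 2179, 1954 and 2004, also lay below the control arrays, at 2235, 2459 and 2211, without a call (-0.17 ± 0.08, adjusted p = 0.418). The mean fall was 0.33 ± 0.04 (adjusted p = 8.13e-06). Of the arrays left out singly, only salt array 1 of m103 ended a call (adjusted p = 0.0561). The probe set of KIN8B can cross-hybridize, and its other, dimmer probe set had a mean change of -0.47 ± 0.21 that was not called (adjusted p = 0.135).

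KIN14B (gene ID 9267695) had the largest mean fall of the 55 genes. Salt arrays of m103 had 193, 269 and 254, against 414, 377 and 307 on control arrays. In agami the salt arrays had 376, 333 and 285, against 397, 591 and 507 on control arrays. The groups did not overlap in either cultivar, nor in the ir29-labelled sets, where salt arrays averaged 383 ± 60.0 in the first and 445 ± 82.7 in the second, against 533 ± 53.0 and 594 ± 35.8 on the control arrays of the same sets. The change was -0.59 for m103 and -0.56 for agami, and for the ir29-labelled sets -0.47 (first) and -0.42 (second), while the mean fall was 0.51 ± 0.09 (adjusted p = 0.000278). Within sets only m103 was called (adjusted p = 0.0407), and that call was lost for 5 of the 6 arrays left out (adjusted p up to 0.185).

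KIN14F, KIN8B and KIN14B were the only 3 of the 55 genes with every salt array below every control array in all 4 sets, which 0.719% of all genes showed. In at least 3 sets this held for 6 genes, all kinesins, with 3.58% of all genes: the others were KIN14H, KIN14I and KIN4A. KIN14H fell in the first ir29-labelled set (0.46 ± 0.11, adjusted p = 0.0111, lost for 1 of 6 arrays left out), where salt arrays averaged 2317 ± 198 and control arrays 3195 ± 181. It also fell in the second (0.43 ± 0.11, adjusted p = 0.0155, lost for 2 of 6 arrays left out). KIN14I, the kinesin-like calmodulin-binding protein KCBP, whose motor is turned off by calcium-bound calmodulin in Arabidopsis, averaged 3026 ± 102 on salt and 3731 ± 423 on control arrays of m103 and 3507 ± 172 on salt and 4469 ± 129 on control arrays of the second ir29-labelled set. Its falls there were 0.295 ± 0.09 (adjusted p = 0.0331, lost for 5 of the 6 arrays left out singly) and 0.35 ± 0.09 (adjusted p = 0.0137, lost for 2 of 6). In agami KIN14I had 3348 ± 30.5 on salt and 3281 ± 167 on control arrays (0.03 ± 0.09).

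KIN4A (gene ID 4346402), known as GDD1, a motor needed for ordered cellulose deposition and cell elongation in rice culms, fell in m103 by 0.38 ± 0.07 (adjusted p = 0.00129). Salt arrays there averaged 3083 ± 29.0 and control arrays 4020 ± 140. In agami it had 3909 ± 147 on salt and 3959 ± 199 on control arrays, in the first ir29-labelled set 3865 ± 114 and 4362 ± 76.5, and in the second 3223 ± 247 and 3738 ± 122. The fall of KIN4A in m103 held without any single array, and the mean fall was 0.20 ± 0.04 (adjusted p = 0.000433).

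**Figure D4:**
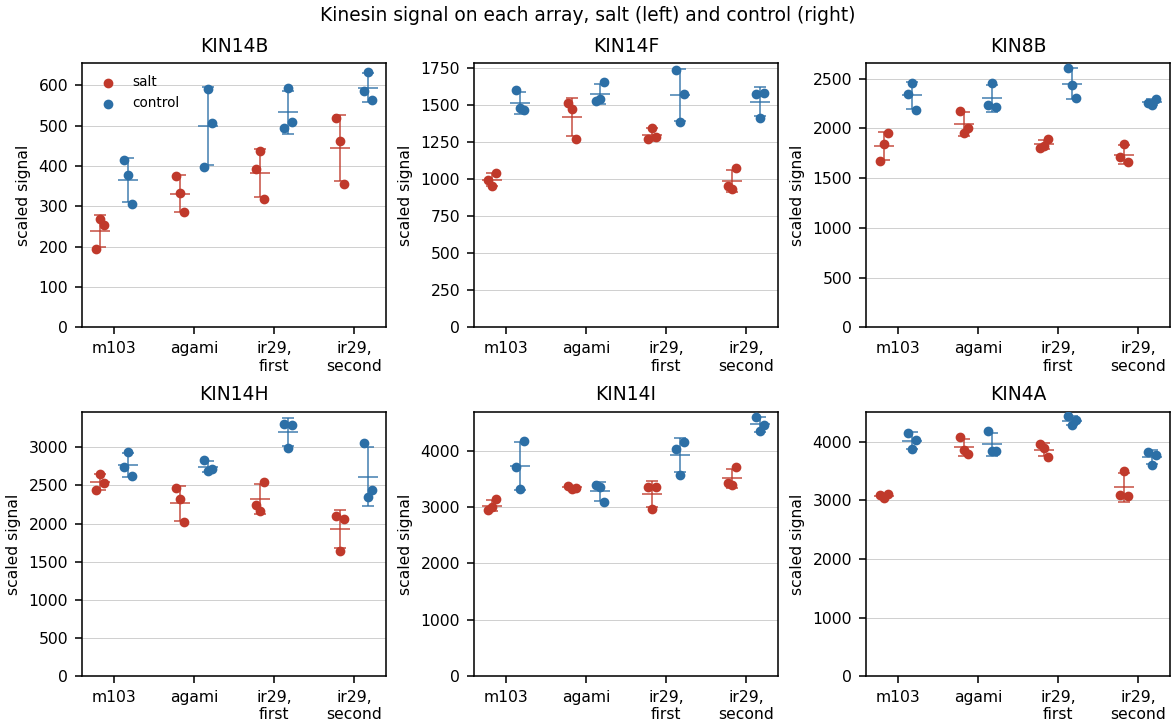
Scaled signal (y axis, linear, from 0) of the 6 kinesins whose salt arrays lay below their control arrays in at least 3 sets, with salt arrays (red) left of control arrays (blue) in each set (x axis). Points are arrays, and bars the mean and SD of 3. In the upper row (KIN14B, KIN14F and KIN8B) red lies below blue in all 4 sets, and in agami KIN14I and KIN4A overlap.

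The remaining kinesins that fell in the mean did so by less. KIN13A, known as SRS3 and needed for normal grain length in rice, fell by 0.18 ± 0.05 (adjusted p = 0.00894), and its other probe set fell too (0.19 ± 0.07, adjusted p = 0.0428). KIN7C fell by 0.18 ± 0.05 (adjusted p = 0.0109) and by 0.34 ± 0.09 in m103 (adjusted p = 0.0224, lost for 4 of 6 arrays left out, up to 0.105), with 4223 ± 400 on salt and 5359 ± 309 on control arrays. KIN7K fell by 0.24 ± 0.08 (adjusted p = 0.0343) and KIN7F by 0.15 ± 0.05 (adjusted p = 0.0354), and both of these mean calls were lost for 12 of the 24 arrays left out. In the second ir29-labelled set KIN7K (0.54 ± 0.16, adjusted p = 0.0329) and KIN14A (0.48 ± 0.13, adjusted p = 0.0211) fell as well, and each of these calls was lost for 2 of the 6 arrays left out.

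Several other kinesins did not pass the test. KIN13B averaged 7723 ± 51.9 on salt and 6877 ± 260 on control arrays of agami and had a mean change of 0.05 (-0.02 to 0.12). KIN7D had -0.10 (-0.19 to -0.02, adjusted p = 0.0866) and KIN14C -0.02 (-0.11 to 0.06). The largest changes of all were positive, in genes whose arrays scattered, and were not called. KIN7A, the NACK-type kinesin of cell plate formation, averaged 299 ± 41.7 on salt arrays of m103, against 153.8 ± 102.6 on control arrays, of which 1 stood at 47.9 (1.11 ± 0.45, adjusted p = 0.141). KIN14M averaged 87.7 ± 24.2 on salt arrays of the first ir29-labelled set, against 28.4 ± 4.07 on control arrays, close to the filter (1.2 ± 0.49, adjusted p = 0.176).

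By sign alone, 9 of 32 kinesins (28.1%) had a negative change in all 4 sets, where 12.6% of all genes did, and 2 (6.25%), KIN14E and KIN14L, a positive one, where 16.3% of all genes did. The 4 sets share no array, so these are 4 separate measurements of each gene. Over all 55 members 10 were negative and 6 positive in all sets.

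Whether the salt effect differed between sets was tested directly. Between agami and m103 limma called none of the 55 genes (0.701% of all genes lower and 0.892% higher; 4 and 5 members at an unadjusted p under 0.05). KIN4A came closest among the kinesins, with a salt effect of -0.02 ± 0.07 in agami and -0.38 ± 0.07 in m103 (difference 0.36 ± 0.10, adjusted p = 0.0945). For KIN14F the difference was 0.45 ± 0.14 (adjusted p = 0.142) and for CYCD4-1 -0.61 ± 0.20 (adjusted p = 0.15). Between the ir29-labelled sets together and the japonica cultivars limma called no member either (0.0922% of all genes lower and 0.191% higher; 4 and 1 members at an unadjusted p under 0.05).

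Between the second and the first ir29-labelled set, 1 gene was called, with 2.97% of all genes higher and 2.15% lower. The gene was CYCD3-1, with an effect of 0.21 in the second and -0.26 in the first (difference 0.47 ± 0.13, adjusted p = 0.045). This call was lost for 10 of the 12 arrays left out in turn (adjusted p up to 0.131). It was also lost without both arrays of the highest actin ratio (difference 0.57, adjusted p = 0.0997). No kinesin was called in this comparison, and KIN8B had a difference of 0.03 ± 0.12.

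Other genes of the cell cycle and the cytoskeleton, taken from lists of symbols, did not share one direction. Of 14 tubulins and other microtubule genes, 5 fell and 1 rose in the mean of the sets, where 11.8% of all genes were called lower and 14.6% higher. TUBB8 fell by 0.46 ± 0.07 (adjusted p = 6.57e-05), TUBB7 by 0.36 ± 0.06 and TUBA1 by 0.26 ± 0.05, while TUBB2 rose by 0.21 ± 0.05. The median over the list was -0.08. Among 25 genes of DNA replication 5 rose and none fell in the mean (6 and 0 at an unadjusted p under 0.05), with a median of 0.08. The number that rose was near the share of all genes (14.6%). The flap nuclease gene FEN1B rose by 0.48 ± 0.06, RPA32-2 by 0.23 ± 0.05 and PCNA, the sliding clamp of the polymerases, by 0.22 ± 0.05. All called replication genes of single sets were in m103 (2 rose, with 6.46% of all genes) and the second ir29-labelled set (5 rose, with 7.4% of all genes). The salt effect on PCNA (0.78 ± 0.14), MCM3 (0.74 ± 0.18) and MCM5 (0.67 ± 0.15) was higher in the second than in the first ir29-labelled set (adjusted p = 0.00382, 0.0268 and 0.0128, with 2.97% of all genes higher). Calls of these listed genes were not followed through the alternatives or with arrays left out. The second set holds both arrays of the highest actin ratio, whose part was not tested.

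Of 23 further genes tested, taken for cell cycle control only by the start of a symbol, 5 rose and 1 fell in the mean of the sets (14.6% and 11.8% of all genes). Their role in the cycle was not checked. The one that fell was CYCP2-1, a P-type cyclin, which fell in every set, by 0.77 ± 0.16 (m103), 0.83 ± 0.16 (agami), 0.58 ± 0.16 (first ir29-labelled) and 0.51 ± 0.16 (second ir29-labelled; adjusted p = 0.00251, 0.0125, 0.0292 and 0.0456). No cyclin of type A, B or D was called in all 4 sets. SMR1, a kinase inhibitor of the SIAMESE family, rose by 0.27 ± 0.06. CDC25.2, whose symbol alone put it in the list, rose by 0.25 ± 0.05, and no activation of kinases is read from it.

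Markers of tissue moved in the same comparisons. OSH1 rose by 0.55 ± 0.10 in the mean of the sets (adjusted p = 0.000544). The list called shoot meristem genes held OSH genes and every gene whose symbol or synonym starts with WOX or LOG. Its bright genes included LOGL10 (median scaled signal 1626), OSH71 (1241) and WOX13 (996). How particular each is to the meristem was not tested. The summed scaled signal of 20 shoot meristem genes was 14110 to 16240 on salt and 11680 to 12960 on control arrays of m103, 9933 to 11630 and 8018 to 8429 in the first, and 9898 to 10660 and 7617 to 9498 in the second ir29-labelled set, and overlapped in agami (12990 to 15460 and 12860 to 14450). OSH1 makes up much of these sums: of the 17 meristem genes tested, 2 rose and none fell in the mean of the sets (4 and 0 at an unadjusted p under 0.05, median 0.09). This was near the share of all genes (14.6% higher and 11.8% lower). In the second ir29-labelled set OSH1 alone was called (median 0.02, with 7.4% of all genes higher). The sum of 22 genes taken as root markers, CASP1 and CASP-like genes, was lower with salt in m103 (22280 to 25680 on salt and 27920 to 33900 on control arrays) and overlapped in the other 3 sets. They did not move as one in m103: 6 fell and 2 rose (7.11% and 6.46% of all genes). The sum of 10 leaf genes overlapped in all 4 sets, with 32290 to 54500 on salt and 45470 to 53940 on control arrays of m103 as the widest spread. The sum of 9 seed genes stayed at or below 734 on every array. The part of tissue makeup in the kinesin changes was not tested.

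The sets also differed without stress, on their control arrays. A signal difference between cultivars can come from the level of the transcript or from sequence differences under the probes, and the arrays cannot tell these apart. The state of deposit went with the set as well. The control arrays of m103 were all deposited unscaled, those of agami and the second ir29-labelled set all scaled, and those of the first were mixed. Counts with this state as a covariate are given at the end. In agami against m103, 5 genes were higher and 3 lower (6.62% and 7.88% of all genes). Through its brightest probe set CYCD5-2 averaged 1673 ± 79.9 in agami and 918 ± 19.9 in m103 (0.85 ± 0.11, adjusted p = 6.27e-06). Its other probe set lay the other way, at 477, 592 and 688 in agami against 723, 837 and 702 in m103. No direction is therefore given for this gene. CYCD4-1 (0.53), CDKA-2 (0.47), KRP5 (0.37) and KIN5A (0.31) were the others called higher in agami, and CYCD6-1 (-0.47), CYCA2-1 (-0.41) and KIN7C (-0.35) were lower. For CDKA-2 the call is that of its brightest probe set. The arrays of both cultivars overlapped on all 3 of its probe sets. Only the call of CYCD5-2 held without each single array: the other 7 were each lost for 3 to 5 of the 6 arrays, most often that of KIN5A, and 2 members were called without control array 2 or 3 of agami. Leaf markers were lower in the same comparison, 5 of 9 tested with a median of -0.61 and RBCS at -2.27, and their part in these differences was not tested.

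The ir29-labelled sets together differed from the japonica cultivars in 18 members, 9 higher and 9 lower (21.9% and 16.2% of all genes). KIN14R (gene ID 4352796) stood out: its control arrays had 220, 194 and 248 in the first and 187, 179 and 222 in the second ir29-labelled set, against 1349, 1066 and 984 in agami and 1225, 1250 and 1347 in m103. The difference was -2.44 ± 0.13 (adjusted p = 2.29e-13), with no overlap. CYCD5-3 had 215, 174 and 208 in the first and 152, 70.4 and 168 in the second ir29-labelled set, against 700, 535 and 500 in agami and 377, 317 and 355 in m103 (-1.43 ± 0.17, adjusted p = 2.3e-07). KIN7C was lower by 0.86 ± 0.07 on the log2 scale in the ir29-labelled sets (adjusted p = 2.89e-10). KIN10B, KIN12E, KIN14E, KIN14N, KIN7D and KIN14C were lower by less (-0.55 to -0.16) in the average of both sets. KIN10B in the first set (1307, 1540 and 1559) and KIN14C in the second (4072, 4060 and 4308) overlapped the japonica control arrays. The 9 that were higher ran from KRP6 (0.63) through CYCD4-1 (0.41), KIN14B (0.39), CYCD3-1 (0.35), KIN14A (0.34), KIN13B (0.32), CYCB2-1 (0.32) and KIN14I (0.26) to KIN5A (0.21). Leaving out single arrays ended the calls of KIN14N (8 of 12 arrays), KIN14E and KIN14C (7 each), KIN5A (5), and KIN7D and KIN14B (3 each), and left the other 12. Centring the arrays on their medians also ended the calls of KIN14C (-0.04), KIN7D (-0.05), KIN14N (-0.09) and KIN14E (-0.11). Genes of the meristem list (OSH, WOX and LOG) moved in this comparison too, 5 of 17 tested lower and 2 higher. OSH1 had -1.61 (adjusted p = 3.88e-09), and the part of these genes was not tested.

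The ir29-labelled sets also differed from each other without stress, in 9 members: 1 was higher and 8 were lower in the second (8.87% and 8.37% of all genes). KIN10B averaged 661 ± 166 in the second and 1469 ± 140 in the first (-1.16 ± 0.16, adjusted p = 1.42e-05), close to the first in agami (1422 ± 61.8) and m103 (1443 ± 135). CYCA1-4 (-0.58), KIN7K (-0.58), KIN7L (-0.55), CYCD6-1 (-0.49), KIN7C (-0.47), KIN7F (-0.33) and KIN4A (-0.22) were lower in the second and KIN14C (0.27) was higher. The calls of KIN10B, KIN7C and CYCA1-4 held without each single array, and the other 6 were lost for 3 to 5 of the 6 arrays, those of KIN4A and KIN7L for 5. With arrays centred on their medians KIN4A had -0.11 (adjusted p = 0.562). OSH1 was higher in the second here (0.67, adjusted p = 0.0322). On salt arrays KIN10B kept this order, with 546 ± 154 in the second and 1258 ± 50.3 in the first.

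**Figure D5:**
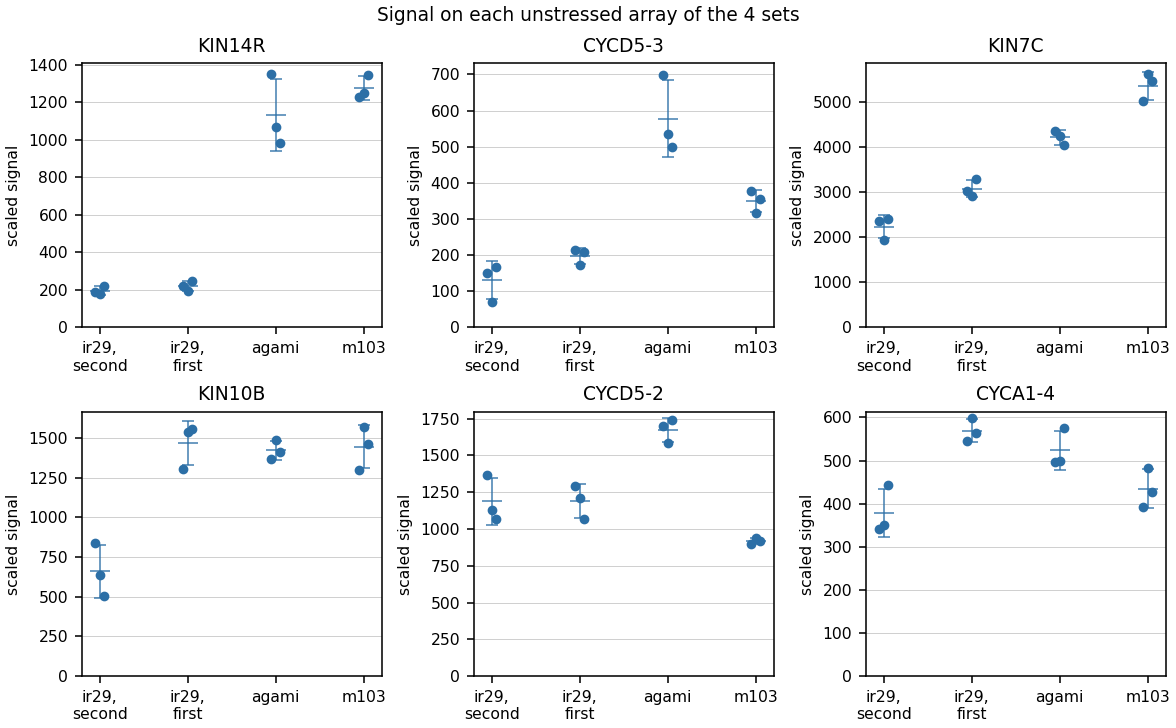
Scaled signal (y axis, linear, from 0) of 6 members on the control arrays of each set (x axis). Points are arrays, and bars the mean and SD of 3. KIN14R and CYCD5-3 lie lower in both ir29-labelled sets than in agami and m103, and KIN10B lies lower in the second ir29-labelled set than in the other 3 sets. CYCD5-2, drawn from its brightest probe set only, is highest in agami.

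Some members varied together from array to array within groups. After subtracting each group's mean, the mean of the A-type and B-type cyclins correlated with that of the kinesins at Pearson's r = 0.57 over 24 arrays, with that of the D-type cyclins at 0.45 and with CDKB2-1 at 0.41, but with that of the KRP genes at 0.16 and of the CDKA genes at 0.12. The arrays share scaling and labelling, so this is a description. Among all genes the central 90% of such correlations with the A-type and B-type mean ran from -0.43 to 0.46. Of 32 kinesins 10 lay above that range, led by the spindle motor KIN5C (0.70) with KIN7L (0.66), KIN14E (0.62), KIN10A (0.61), KIN14N (0.61) and KIN12C (0.61), and 1 lay below it (KIN14O, -0.70).

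Of the 10 kinesins that fell with salt, 1 (KIN8B, 0.48) lay above that range, and of the other 22 kinesins 9 did. KIN14F (-0.26), KIN14I (-0.12), KIN14H (0.13) and KIN4A (0.16) lay well inside it. The median r was 0.17 over the 10 that fell and 0.33 over the other 22, a difference that was not tested.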

How the data were processed

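Each of the 24 arrays was deposited as linear intensity values, 1 per probe set, which the authors made in GCOS 1.2 (source: per the submitters' processing notes). Which signal algorithm was run is not stated in the sources used here. Trimmed means (2% off each end) of the deposited intensity were 500.07 to 500.08 on 15 arrays and 58.79 to 115.71 on 9 arrays deposited unscaled, and every array was multiplied to a trimmed mean of 500. Of 57381 probe sets, 123 controls were left out. The others were taken as log2(scaled signal + 16), and 34355 whose mean lay above the 40th percentile (a scaled signal of about 27.9) were tested.

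One model with 8 group means was fitted to all arrays with limma 3.58.1 in R 4.3.3 (intensity trend, 16 residual degrees of freedom), with Benjamini-Hochberg adjustment over all probe sets tested and 11 comparisons. It was tested on simulated data. Figures were drawn with matplotlib 3.10.9. The number of arrays limits the precision. Errors are the SE for log2 changes and the SD over 3 arrays for signals.

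Probe sets were named through the platform's annotation, which is old, by gene ID to the RefSeq gene table of assembly ASM3414082v1: 22436 had 1 gene, 95 had several and are not named, and the rest have no gene here. Groups follow the titles, which the treatment field matches. The description field calls all samples unstressed. Members and lists were chosen with earlier results of these data known. Lists match symbols by prefix, and a few prefixes that caught other families (MAD, SAP, PRX) were dropped. Genes named in the text are those called in a salt comparison, those called without stress, the 3 of highest signal in each class and the largest called genes of each list, with KIN5A, KIN7A, KIN10A, KIN14M, CYCB1-3 and the genes of the sign, separation and correlation descriptions chosen after their values were seen. Sequences of promoters and proteins were not used here. Alternatives tried were the normalization, pseudocount, filter, moderation, scaling state, replicate block, each set alone and each array left out.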

Additional observations from a re-analysis of the deposited data

Results flagged for a closer look

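The salt effect on CYCD3-1 was called different between the ir29-labelled sets by the test of the difference, a fragile call. The effect was 0.21 in the second and -0.26 in the first, a difference of 0.47 on the log2 scale (95% confidence interval 0.20 to 0.74, limma adjusted p = 0.045). In the first set all 3 salt arrays lay below all 3 control arrays, and in the second set the groups overlapped. Leaving out single arrays gave an adjusted p between 0.017 and 0.131, and the call was lost for 10 of the 12 arrays. Of 21 alternatives in all, 6 kept the call and 15 lost it.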

How the results depend on the processing

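Of 70 results for single genes, 27 kept their call under every alternative run and none changed direction. In all, 1115 of 1418 alternative values kept the call and 303 lost it. The mean falls of KIN14B, KIN14F and KIN8B held under all 33 alternatives each. Counts of members called that moved by over 1.5 times are given here, and the cause was not tested. With arrays centred on their medians, applied to the scaled values, 5 members were called in m103 (8 as reported), 5 in the second ir29-labelled set (8), 0 in the difference between the ir29-labelled sets (1), 5 in agami against m103 without stress (8) and 4 between the ir29-labelled sets without stress (9). Quantile normalization and no filter each gave 0 for the difference between the ir29-labelled sets, and no intensity trend gave 0 there, 3 in m103 and 5 between the ir29-labelled sets without stress. With the scaling state as a covariate the unstressed counts were 4 in agami against m103 and 3 between the ir29-labelled sets. The arrays deposited unscaled, alone, gave 4 in m103 and 1 in the first ir29-labelled set. Fitted alone, the second set gave 0. Without both arrays of the highest actin ratio, an alternative chosen after seeing the data, 1 was called in the second set (KIN14F, -0.67, adjusted p = 0.015), 0 in the difference and 10 in the mean of the sets (15).

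Pairing by replicate number was at most weak: deviations of same-numbered salt and control arrays correlated at -0.05 to 0.20. With the replicate block 5 members were called in the first ir29-labelled set (3), 1 between agami and m103 (0) and 2 between the ir29-labelled sets (1). Leaving out single arrays gave 4 to 8 members in m103 (4 without control 1, control 3, salt 1 or salt 2), 0 to 1 in agami, 1 to 5 in the first set (1 without salt 2), 3 to 8 in the second (3 without control 1 or salt 2) and 11 to 16 in the mean. For the differences it gave 0 to 3 (agami minus m103), 0 to 2 (second minus first) and 0 to 0 (ir29 minus japonica), and without stress 2 to 10, 4 to 11 and 14 to 17 in the same order. Centring moved the median of all probe sets without stress to 0.10 from -0.014 (second minus first) and to 0.12 from -0.00098 (ir29 minus japonica). The kinesin medians there were 0.03 with centring against -0.08, and -0.01 against -0.14.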
